A study of Mus musculus with 6 samples.

Results

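The circadian clock genes described here are Arntl, Clock, Per1, Per2, Per3, Cry1, Cry2, Nr1d1, Nr1d2 and Dbp. Their accessible regions were taken as the ATAC-seq intervals that overlapped the body of 1 of these genes or lay within 10 kb of 1 of its transcription start sites (TSS). The rule used positions only and found 62 of the 39768 intervals of the count table analysed here. Per1 had 13 of them, Arntl 9, Per2 8, Cry1, Cry2 and Nr1d1 6 each, Dbp 5, Nr1d2 4, Clock 3 and Per3 2.

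ATAC-seq measures how readily the transposase Tn5 inserts into chromatin, so a high count of fragment ends marks an open region. The study compared muscle nuclei of C57BL/6 mice aged 7 weeks in which both genes of the histone variant H2A.Z were, per the labels, targeted for deletion or left intact. Both groups carried H2A.Z-1 flox/flox and H2A.Z-2 flox/flox, with loxP sites around exons of h2afz and h2afv. The 3 CTL libraries lacked HSA CRE and the 3 H2A.Z dKO libraries carried it. The HSA promoter drives the Cre recombinase in post-mitotic muscle fibres, so the nuclei of other cells in the muscle keep H2A.Z. The labels give Tibialis anterior as the tissue and the methods describe hind limb muscles. The time of day at which muscles were taken is not given in the sources used here, and neither is whether each library came from a separate animal. The p-values therefore measure the spread between these libraries, which may be in part technical.

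Library totals ran from 3520008 to 6117245 counts, and 0.228 to 0.238% of each library fell in the clock gene intervals. As a check of the labels, the floxed part of H2afz was covered by 2 intervals. Their CTL counts were 79, 69 and 33 and their H2A.Z dKO counts 57, 52 and 64. Scaled, these were 12.9, 14.9 and 9.35 CPM against 10.0, 11.3 and 12.6 CPM, a mean of 90.8% of CTL with overlapping groups. The deletion of H2afz was thus not visible in these low counts, and the floxed part of H2afv was not examined. The paper itself reports depletion of H2A.Z in muscle of such mice by RT-qPCR, western blotting and immunofluorescence. Throughout, H2A.Z dKO stands for the libraries labelled so. H2A.Z dKO replicate 1 stood apart from the other libraries. Its promoter counts per gene deviated from the mean of the other 5 libraries with an SD of 0.274 on the log2 scale, against 0.138 to 0.168 for each other library, measured the same way. It also held 77.0% of its counts in promoter intervals, against 73.2 to 74.9%. Promoter intervals were present for 7 of 10 muscle fibre markers, with a summed level (TMM-scaled CPM, the library's counts brought to a common scale) of 311 to 419 CPM in CTL and 333 to 436 CPM in H2A.Z dKO. The fibre markers Mylpf, Atp2a1 and Mb had none. Of the other cell types, 4 of 5 endothelial markers had such intervals, 2 of 4 fibroblast markers, 0 of 4 macrophage markers and 0 of 2 satellite cell markers. The endothelial level was 56.0 to 69.0 CPM in CTL and 45.3 to 52.5 CPM in H2A.Z dKO, without overlap. The fibroblast level was 42.2 to 45.1 CPM in CTL and 38.4 to 47.4 CPM in H2A.Z dKO. The part of the endothelial difference in the values given below was not tested.

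The mammalian clock is a feedback loop of transcription. BMAL1 (the product of Arntl) and CLOCK form a dimer that binds E-boxes and activates the Per and Cry genes, whose PER and CRY proteins enter the nucleus and repress the dimer. A second loop runs through the nuclear receptors REV-ERB alpha and beta (Nr1d1 and Nr1d2), which repress Arntl at ROR elements, the sites where ROR receptors activate it. DBP, a PAR bZIP factor, is an output of the loop that binds D-boxes, and cyclic AMP acts on the Per genes through CREB sites (CRE). In skeletal muscle the clock is known to time metabolic genes.

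The elements of this loop were looked for in the 200 bp around the midpoint of each interval, on both strands. The letters searched were CACGTG (E-box), CACGTT (E'-box), TTANGTAA (D-box), TAGGTCA and TGGGTCA (ROR element cores) and TGACGTCA (CRE). At least 1 of the 6 was present in 23 of the 62 clock gene windows (37.1%), against 14.7% of all 39768 windows of the same length. The E-box was in 9 of 62 (14.5% against 5.36%), the E'-box in 5 (8.06% against 3.11%) and the D-box in 3 (4.84% against 1.05%). TAGGTCA was in 6 (9.68% against 1.71%), TGGGTCA in 3 (4.84% against 3.02%) and the CRE in 2 (3.23% against 1.42%). These counts include windows that share a motif because they overlap. Of the 62 intervals, 19 fell into 8 groups of overlapping intervals, and windows of close intervals that did not overlap could share a motif too. Both CRE windows, in Per1, held the same site, as did 2 of the E-box windows, upstream of Nr1d1. Among the 32 clock gene intervals away from any promoter, 14 had a motif in their window, against 14.1% of all such intervals. In 13 of the 23 windows a motif lay within the interval itself, and in the other 10 the motifs lay only in the part of the window outside a narrower interval, where the counts do not measure them. A match is a run of letters, not a bound site.

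A selection of the windows that hold the loop's elements is shown first, 5′ to 3′ on the strand of the gene in the mm9 genome, with the motif in capitals. Where a site lies on the other strand, the capitals show its reverse complement. Of the Per genes, the Per1 promoter holds an E-box, an intron of Per1 a CRE, the Per2 promoter a D-box and, at its 3′ end just inside the first annotated exon, an E'-box, and the Per3 promoter a pair of D-boxes.
Per1 promoter, chr11:68908506-68908705, plus strand: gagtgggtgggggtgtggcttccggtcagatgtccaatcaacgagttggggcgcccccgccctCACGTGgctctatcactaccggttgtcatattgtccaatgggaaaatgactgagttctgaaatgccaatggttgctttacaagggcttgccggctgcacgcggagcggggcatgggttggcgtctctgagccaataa
Per1 intron, chr11:68910677-68910876, plus strand: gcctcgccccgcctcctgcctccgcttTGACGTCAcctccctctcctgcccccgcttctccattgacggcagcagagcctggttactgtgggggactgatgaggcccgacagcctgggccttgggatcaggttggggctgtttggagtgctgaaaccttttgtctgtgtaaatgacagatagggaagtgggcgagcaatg
Per2 promoter, chr1:93355885-93356084, minus strand: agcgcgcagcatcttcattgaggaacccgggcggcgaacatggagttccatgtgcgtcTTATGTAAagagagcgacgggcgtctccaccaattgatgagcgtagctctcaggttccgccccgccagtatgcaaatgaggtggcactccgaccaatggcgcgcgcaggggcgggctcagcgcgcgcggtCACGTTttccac
Per3 promoter, chr4:150418821-150419020, minus strand: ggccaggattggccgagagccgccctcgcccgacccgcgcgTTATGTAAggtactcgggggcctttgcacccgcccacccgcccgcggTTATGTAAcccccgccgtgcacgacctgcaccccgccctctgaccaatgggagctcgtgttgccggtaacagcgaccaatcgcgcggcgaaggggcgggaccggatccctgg

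Of the Cry genes, the part of the Cry1 promoter window upstream of the TSS holds an E'-box and an E-box, a Cry1 intron a pair of ROR elements, and a Cry2 intron a ROR element core and a pair of E-boxes. The Cry2 promoter interval contains an E'-box as well, in a window not shown.
Cry1 promoter, chr10:84647800-84647914, minus strand: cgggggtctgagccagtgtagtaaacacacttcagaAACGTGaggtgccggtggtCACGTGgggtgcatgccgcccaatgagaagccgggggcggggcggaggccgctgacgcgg
Cry1 intron, chr10:84624557-84624756, minus strand: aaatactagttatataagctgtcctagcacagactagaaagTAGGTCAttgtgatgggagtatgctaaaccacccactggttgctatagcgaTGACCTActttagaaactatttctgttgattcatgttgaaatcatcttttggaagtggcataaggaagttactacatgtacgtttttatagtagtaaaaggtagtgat
Cry2 intron, chr2:92263948-92264147, minus strand: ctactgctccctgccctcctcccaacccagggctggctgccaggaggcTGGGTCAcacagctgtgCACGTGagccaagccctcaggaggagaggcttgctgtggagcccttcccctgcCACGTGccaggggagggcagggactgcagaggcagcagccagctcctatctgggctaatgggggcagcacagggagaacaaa

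Of the other arms, a Nr1d1 intron holds an E-box, the Dbp promoter both ROR element cores and an Arntl intron a ROR element.
Nr1d1 intron, chr11:98635178-98635377, minus strand: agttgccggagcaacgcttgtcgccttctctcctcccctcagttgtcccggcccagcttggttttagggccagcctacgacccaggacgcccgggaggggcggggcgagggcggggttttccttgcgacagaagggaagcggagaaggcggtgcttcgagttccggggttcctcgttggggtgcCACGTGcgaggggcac
Dbp promoter, chr7:52960195-52960394, plus strand: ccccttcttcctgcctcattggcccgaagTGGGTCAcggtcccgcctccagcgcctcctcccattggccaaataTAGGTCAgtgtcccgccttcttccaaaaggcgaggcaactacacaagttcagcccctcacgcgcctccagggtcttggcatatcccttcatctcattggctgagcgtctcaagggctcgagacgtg
Arntl intron, chr7:120394283-120394482, plus strand: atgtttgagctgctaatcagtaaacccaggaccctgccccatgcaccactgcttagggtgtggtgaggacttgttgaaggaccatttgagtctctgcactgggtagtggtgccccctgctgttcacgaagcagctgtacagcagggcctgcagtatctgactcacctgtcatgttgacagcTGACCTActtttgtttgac

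The next windows hold none of the letters searched and are shown because they lie in the Per2 intron interval and the Nr1d2 promoter interval described below. They cover only a part of these intervals, and the Nr1d2 window is cut to its part upstream of the annotated gene start.
Per2 intron, chr1:93342818-93343017, minus strand: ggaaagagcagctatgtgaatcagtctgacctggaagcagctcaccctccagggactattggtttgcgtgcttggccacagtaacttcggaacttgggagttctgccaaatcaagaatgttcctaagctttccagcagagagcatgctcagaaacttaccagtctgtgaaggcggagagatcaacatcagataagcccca
Nr1d2 promoter, chr14:19071642-19071806, minus strand: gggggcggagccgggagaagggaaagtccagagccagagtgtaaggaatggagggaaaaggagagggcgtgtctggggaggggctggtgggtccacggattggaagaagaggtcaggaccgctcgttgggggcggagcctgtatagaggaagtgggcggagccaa

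By position, 26 of the 62 intervals were promoter intervals of their own gene, with the midpoint within 1 kb of 1 of its TSSs in GENCODE vM1. Another 32 lay away from promoters, 28 of them in introns and 4 outside genes, and 4 lay at the promoter of a neighbour (Vamp2 beside Per1, Car11 and Rpl18 beside Dbp). The clock gene intervals were better covered than most, with a median of 111.4 counts per library against 67.3 for all intervals, and slightly wider, with a median of 147 bp against 137 bp. The authors' table lists each interval as found in both groups, in CTL or in H2A.Z dKO. It listed 17 of the 26 promoter intervals in both groups (65.4%, against 52.3% of all promoter intervals) but 4 of the 32 others (12.5%, against 23.7% of all intervals away from promoters).

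No clock gene interval differed between the groups past the threshold. With edgeR's quasi-likelihood test and Benjamini-Hochberg adjustment over all 39768 intervals, 0 of 62 had an adjusted p under 0.05, and the lowest adjusted p was 0.972. The background was the same, since 0 of the 39768 intervals passed (0%). DESeq2 on the same counts also called 0 of 62. Without adjustment, 7 of 62 (11.3%) had p under 0.05 in edgeR and 5 of 62 (8.06%) in DESeq2. The share of all intervals at an unadjusted p under 0.05 was 4.95% in edgeR and 1.9% in DESeq2, and the share that was so and lower in H2A.Z dKO was 2.31% in edgeR. Without H2A.Z dKO replicate 1 the edgeR count was 4 of 62 (6.45%), below the 7.95% of all intervals in the same fit. All 7 clock gene intervals were lower in H2A.Z dKO. Of these, 2 (in the Per2 intron and at the start of Vamp2, beside Per1) kept an unadjusted p under 0.05 whichever library was left out, and the other 5 lost it without at least 1 library. By the authors' listing, the intervals upstream of Arntl, at the Vamp2 start and in Cry2 were found in CTL only. In the Per2 intron 2 were found in CTL only and 1 in H2A.Z dKO only, and the interval in Per1 was found in both. The listing rests on peaks called in the same libraries, and its part in the shared direction was not tested. Among the 62, 26 were higher and 36 lower, the median log2 fold change was -0.04, against 0.01 over all intervals, and values ran from -0.87 to 0.48. The groups did not overlap in 11 of the 62, against 10.8% of all intervals. The 95% interval of the fold change excluded changes of 2-fold or more in 57 of 62 (91.9%, against 91.4% of all intervals) and of 1.5-fold or more in 33 (53.2%, against 49.6%).

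**Figure D1:**
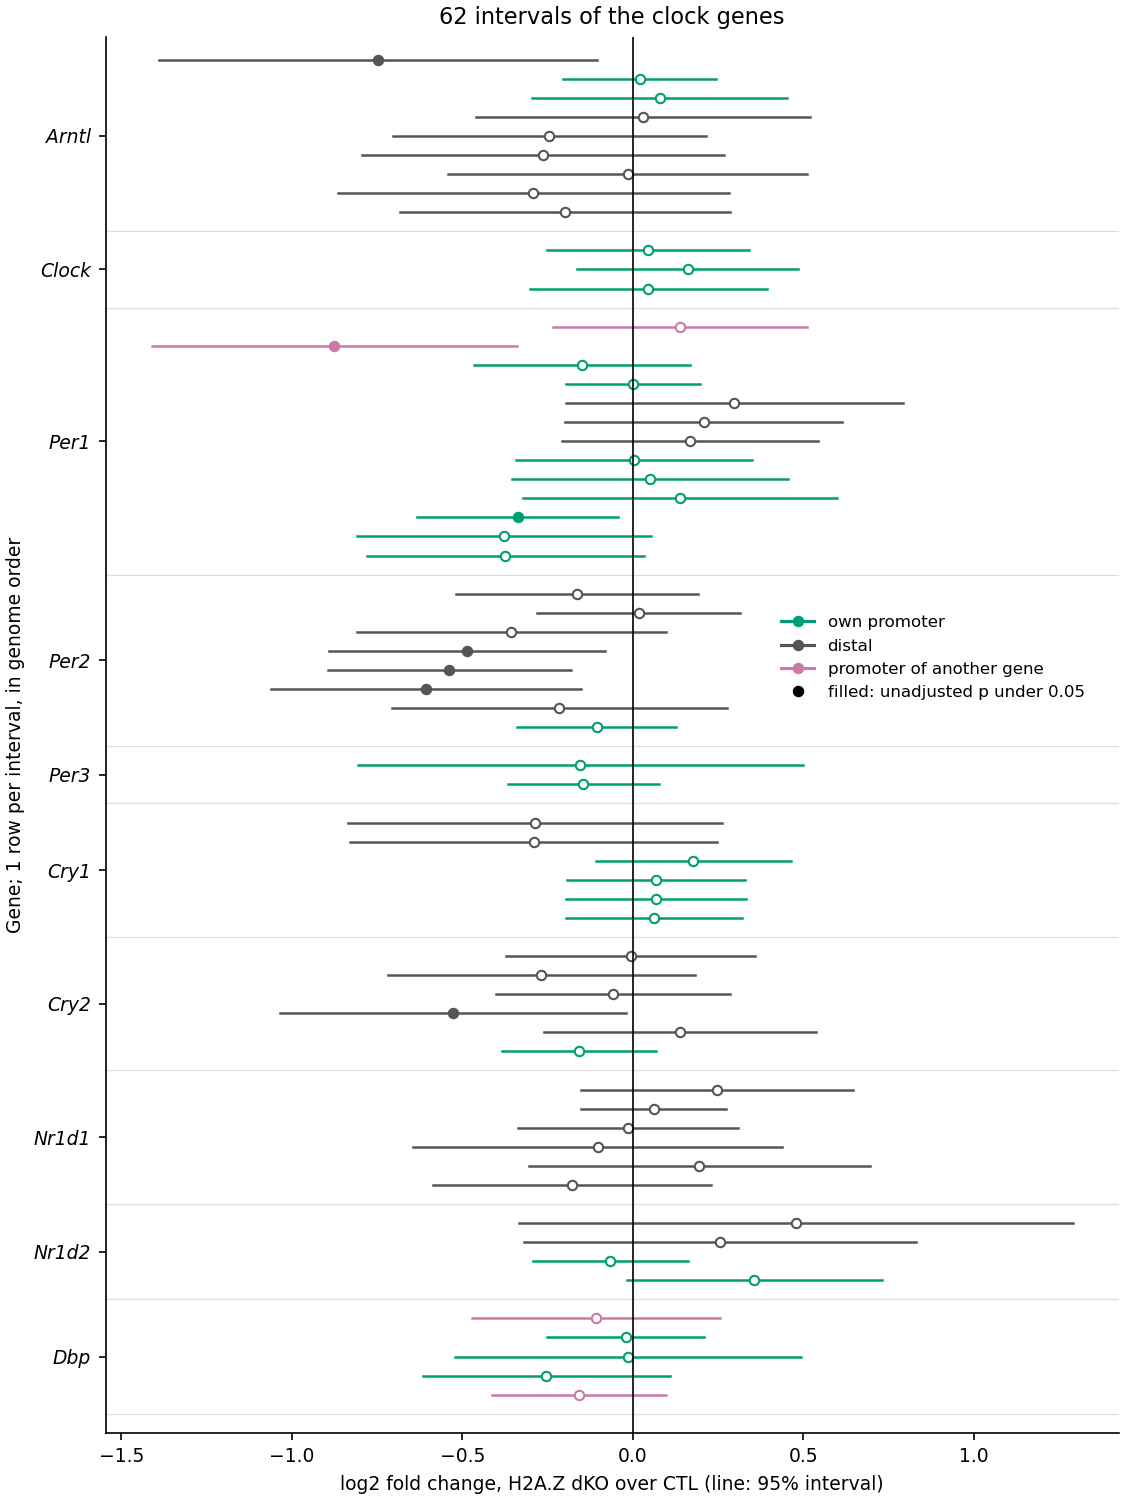
The log2 fold change (H2A.Z dKO over CTL) of each of the 62 clock gene intervals is plotted on the x axis with its 95% interval, 1 row per interval, grouped by gene on the y axis and coloured by position. The 7 filled points had an unadjusted p under 0.05, none passed adjustment, and all 7 lie to the left of 0.

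Promoters and other regions of the clock genes were described apart. Of the 26 promoter intervals, 14 were higher and 12 lower in H2A.Z dKO, with 1 at an unadjusted p under 0.05 (3.85%, against 3.83% of all promoter intervals). Of the 32 intervals away from promoters, 11 were higher and 21 lower, with 5 at an unadjusted p under 0.05 (15.6%, against 6.19% of all intervals away from promoters). All 5 were lower, and 2.95% of all intervals away from promoters were so and at an unadjusted p under 0.05. The count was 3 without CTL replicate 1 (9.38%, against 6.97% of all such intervals in that fit), 2 without CTL replicate 3 (6.25% against 4.34%), 3 without H2A.Z dKO replicate 1 (9.38% against 9.54%) and 3 without H2A.Z dKO replicate 2 (9.38% against 5.58%). It was 4 without CTL replicate 2 (12.5% against 5.78%) and 6 without H2A.Z dKO replicate 3 (18.8% against 5.85%). DESeq2 gave 3 (9.38% against 2.2%). The difference between these classes was not tested, and 3 of the 5 lie in 1 chain of overlapping intervals in Per2. The part of the higher share listed in CTL only, given above, was not tested either.

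The promoters were then compared as sums of the promoter intervals of each gene, which could be had for 9 of the 10 genes. Nr1d1 had no interval within 1 kb of its TSSs. At Cry1, Clock and Per1 the sums include intervals that overlap, so fragment ends in the shared part were counted more than once, as in 18.8% of all genes with a promoter interval. Over 12289 genes with a promoter interval, edgeR called 0 (0%) at an adjusted p under 0.05 and 4.34% at an unadjusted p under 0.05. None of the 9 clock genes passed either threshold, and DESeq2 also gave 0 of 9 at both, against 2.64% of all genes at its unadjusted p under 0.05. With 1 interval per group of overlapping intervals, chosen after the data were seen, none passed either. The sums in H2A.Z dKO were between 90.6% (Cry2) and 115.7% (Nr1d2) of those in CTL.

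**Figure D2:**
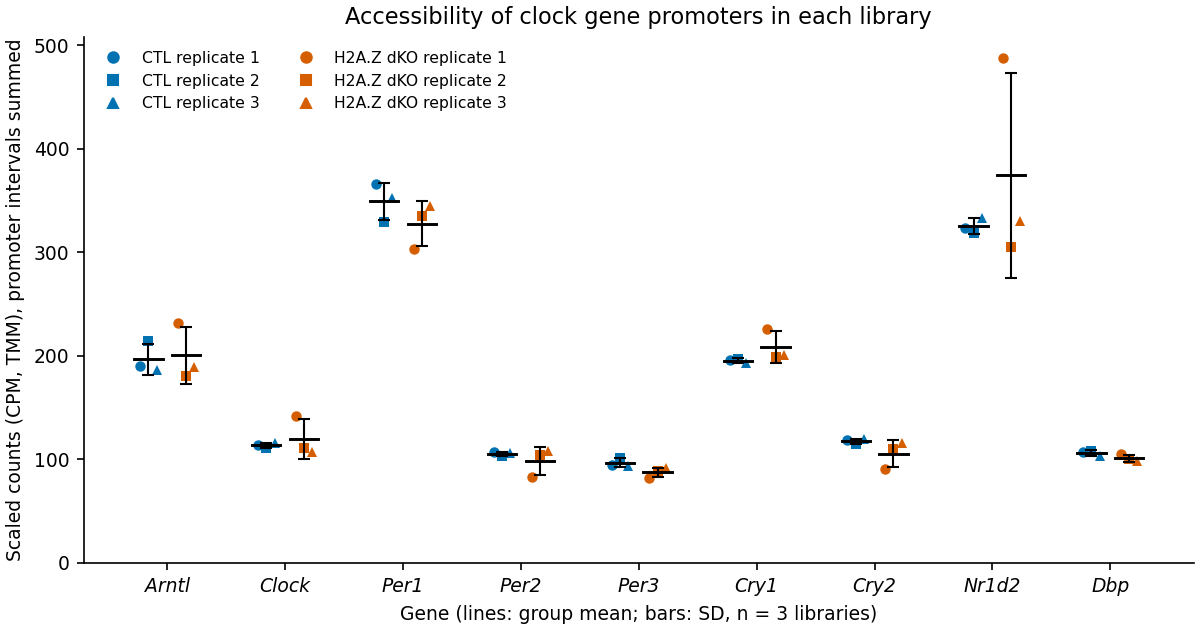
Summed counts of the promoter intervals (TMM-scaled CPM, y axis) are plotted for 9 clock genes (x axis) in each of the 6 libraries, with the group mean and the SD over 3 libraries. The H2A.Z dKO mean of Nr1d2 is raised by replicate 1 at 488.1 CPM, while the other H2A.Z dKO libraries of Nr1d2, at 305.2 and 330.4 CPM, lie near those of CTL.

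The activators Arntl and Clock had like promoter levels in both groups. The Arntl promoter held 190.4, 214.0 and 186.3 CPM in CTL and 231.9, 180.1 and 189.2 CPM in H2A.Z dKO. The groups overlapped, and the log2 fold change was 0.04 (SE 0.10). The Clock promoter held 114.0, 111.0 and 116.1 CPM in CTL and 141.8, 110.8 and 106.9 CPM in H2A.Z dKO, with a log2 fold change of 0.09 (SE 0.10), or 0.05 (SE 0.11) with each overlapping group counted once. At both genes H2A.Z dKO replicate 1 was the highest of the 6 libraries, and the other H2A.Z dKO libraries lay within or just below the range of CTL.

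Most of the Arntl promoter counts came from an interval of 671 bp at chr7:120350457-120351128, centred 187 bp upstream of the TSS. It held 1022, 881 and 559 counts in CTL and 1146, 736 and 832 in H2A.Z dKO, a log2 fold change of 0.02 (SE 0.11). Inside the gene, 4 narrow intervals lay 43.4 to 43.9 kb from the TSS in an intron. The ROR element shown above lies in the windows of the first 2 of them but outside both intervals. Their log2 fold changes were -0.25, -0.26, -0.02 and -0.29 with SEs of 0.22 to 0.28. An interval with an E'-box 9.08 kb into the gene varied widely within both groups. It held 26.5, 15.4 and 19.3 CPM in CTL and 13.9, 22.7 and 26.9 CPM in H2A.Z dKO (log2 fold change 0.03, SE 0.24). The lowest unadjusted p at Arntl belonged to a small region 5.69 kb upstream (chr7:120345259-120345315). It held 33, 14 and 17 counts in CTL and 17, 8 and 16 in H2A.Z dKO. The groups overlapped, with a log2 fold change of -0.75 (SE 0.31, unadjusted p = 0.025, edgeR adjusted p = 0.972). At Clock, which had promoter intervals only, the 3 intervals centred at 35, -18 and -269 bp from a TSS had log2 fold changes of 0.05, 0.16 and 0.05.

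The Per genes encode the PER repressors, and Per1 had the most counts among them. Its promoter sum covers 8 intervals at several TSSs of the gene. It held 365.7, 329.6 and 352.3 CPM in CTL and 303.5, 335.5 and 344.7 CPM in H2A.Z dKO, with a log2 fold change of -0.08 (SE 0.10). The groups overlapped, with H2A.Z dKO replicate 1 the lowest library. The interval with the E-box (chr11:68908385-68908825, centred 114 bp upstream of the first TSS) had the same level in both groups. It held 166.3, 152.8 and 162.6 CPM in CTL and 161.9, 156.5 and 163.4 CPM in H2A.Z dKO, with a 95% interval of the ratio of 87.3 to 114.6% of CTL. A pair of narrow intronic intervals, 1.94 and 2.06 kb into Per1, lay on either side of the CRE without covering it, and had log2 fold changes of 0.21 (SE 0.20) and 0.17 (SE 0.18).

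Farther into Per1, near an internal TSS 4.69 to 4.95 kb from the first one, all 3 intervals had lower means in H2A.Z dKO. The best covered (chr11:68913377-68913582) held 353, 262 and 222 counts in CTL and 209, 250 and 254 in H2A.Z dKO. In scaled counts these were 57.8, 56.7 and 62.9 CPM against 36.7, 54.1 and 49.8 CPM, so the groups did not overlap, and the log2 fold change was -0.34 (SE 0.14, unadjusted p = 0.027, edgeR adjusted p = 0.972). Without H2A.Z dKO replicate 1, the lowest library, it was -0.18 with an unadjusted p of 0.11. The other intervals there had log2 fold changes of -0.38 and -0.37 with unadjusted p of 0.083 and 0.069, and the first of them lies inside the best covered one.

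The lowest fold change of all 62 intervals was measured within 10 kb of Per1 but at the start of its neighbour Vamp2, which encodes a vesicle fusion protein. This interval (chr11:68902168-68902246, centred 162 bp downstream of the Vamp2 TSS) held 40, 37 and 41 counts in CTL and 27, 21 and 23 in H2A.Z dKO. Each H2A.Z dKO library was below each CTL library, with a log2 fold change of -0.87 (SE 0.26, unadjusted p = 0.0027, edgeR adjusted p = 0.972). The adjacent, wider Vamp2 promoter interval had a log2 fold change of 0.14 (SE 0.18).

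At Per2 the promoter and an intron differed in their values. The promoter interval of 581 bp (chr1:93355694-93356275), with the D-box and E'-box shown above, held 107.3, 103.4 and 105.9 CPM in CTL and 82.8, 103.9 and 107.9 CPM in H2A.Z dKO. Only replicate 1 of the H2A.Z dKO libraries lay below CTL (log2 fold change -0.11, SE 0.11). In the intron, 4 intervals, each overlapping the next, lay 12.9 to 13.2 kb from the TSS, between chr1:93342642 and chr1:93343050. The best covered (chr1:93342798-93343036) held 186, 137 and 117 counts in CTL and 100, 110 and 117 in H2A.Z dKO. In scaled counts these were 30.5, 29.7 and 33.1 CPM against 17.5, 23.8 and 22.9 CPM. Each H2A.Z dKO library was below each CTL library, and the level was 68.9% of CTL with a 95% interval of 53.8 to 88.2% (log2 fold change -0.54, SE 0.17, unadjusted p = 0.0049, edgeR adjusted p = 0.972).

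The groups were also separate in the other 3 intervals of this chain. Of these, 2 overlap the best covered one and share fragment ends with it, so they are no further evidence. Their log2 fold changes were -0.36 (SE 0.22), -0.49 (SE 0.20) and -0.61 (SE 0.22), with unadjusted p of 0.12, 0.021 and 0.011. Leaving out any 1 library kept the log2 fold change of the best covered interval between -0.62 and -0.41 and its unadjusted p between 0.0052 and 0.025. The endothelial marker level was lower in H2A.Z dKO as well, as given above, and its part here was not tested. Elsewhere in Per2, the intronic intervals 8.23, 22.7 and 22.9 kb from the TSS had log2 fold changes of -0.22, 0.02 and -0.16, and the groups overlapped in all 3.

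**Figure D3:**
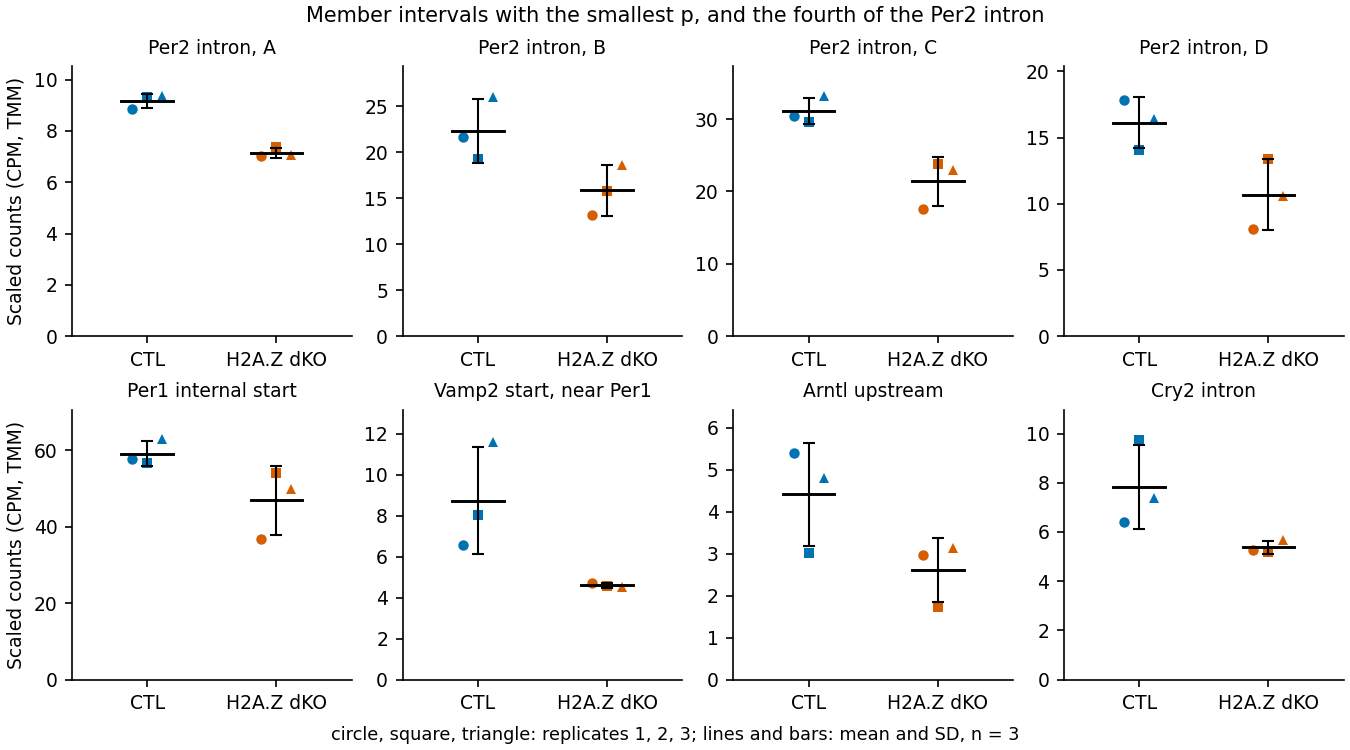
Scaled counts (CPM, y axis, from 0) of the 7 clock gene intervals with an unadjusted p under 0.05 and of the fourth interval of the Per2 chain (A) are plotted by group (x axis), 1 point per library, with mean and SD (n = 3). In all panels but that of Arntl the libraries of the groups do not overlap, and none of the 8 passed adjustment.

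Per3 had promoter intervals only. The wide one, with the pair of D-boxes (chr4:150418661-150419180), held 92.1, 99.3 and 89.2 CPM in CTL and 79.3, 85.7 and 89.0 CPM in H2A.Z dKO. The highest H2A.Z dKO library thus lay just below the lowest CTL library (log2 fold change -0.14, SE 0.11, unadjusted p = 0.19). For the promoter sum, where the groups did not overlap either, the exact permutation test gave p = 0.1, the smallest that 3 libraries against 3 allow. The second interval was 11 bp wide and held 10 to 17 counts per library.

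The Cry genes encode the other repressors, and neither promoter passed a threshold. The Cry1 promoter sum held 196.4, 196.9 and 193.1 CPM in CTL and 226.1, 198.5 and 200.8 CPM in H2A.Z dKO. Each H2A.Z dKO library was above each CTL library (log2 fold change 0.10, SE 0.09, exact permutation p = 0.1), though replicates 2 and 3 of H2A.Z dKO lay close to CTL. This sum includes 3 intervals nested in one another. With 1 of them kept, the level was 101.4, 96.5 and 94.9 CPM in CTL and 116.3, 101.9 and 99.8 CPM in H2A.Z dKO, so the groups overlapped (log2 fold change 0.12, SE 0.09). The Cry1 interval with the E-box and E'-box (chr10:84647693-84647935) had a log2 fold change of 0.18 (SE 0.14) with overlapping groups. The overlapping intronic intervals at the pair of ROR elements, 23.1 kb into Cry1, both had a log2 fold change of -0.29 with an SE of 0.26. The wider of them, which contains both elements, held 10.5, 13.0 and 14.4 CPM in CTL and 5.79, 10.8 and 14.3 CPM in H2A.Z dKO.

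The Cry2 promoter held 118.3, 114.5 and 119.5 CPM in CTL and 90.9, 109.7 and 115.5 CPM in H2A.Z dKO. The groups overlapped (log2 fold change -0.14, SE 0.11). Among the intronic intervals of Cry2, a narrow one 5.89 kb from the first TSS (chr2:92268278-92268332) held 39, 45 and 26 counts in CTL and 30, 24 and 29 in H2A.Z dKO. In scaled counts the groups did not overlap (6.39, 9.74 and 7.36 CPM against 5.26, 5.19 and 5.69 CPM). This gave a log2 fold change of -0.53 (SE 0.24, unadjusted p = 0.042, edgeR adjusted p = 0.972), and leaving out CTL replicate 2 gave -0.33 with an unadjusted p of 0.22. The intronic interval with the pair of E-boxes, 10.2 kb from the first TSS, had a log2 fold change of -0.01 (SE 0.18).

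The REV-ERB genes Nr1d1 and Nr1d2 were both open, but at different places relative to their annotated starts. The most covered Nr1d1 interval was 530 bp wide (chr11:98635012-98635542), lay 1.37 kb into the gene and held 123.7, 130.5 and 122.9 CPM in CTL and 144.6, 121.9 and 126.9 CPM in H2A.Z dKO. It ranked at the 99.8th percentile of counts among all intervals away from promoters, with a log2 fold change of 0.06 (SE 0.10). A narrow interval inside it, with a D-box in its window beyond its own borders, had a log2 fold change of -0.01 (SE 0.16). Upstream of Nr1d1, neighbouring intervals at -8.16 and -8.26 kb from the TSS have windows that share an E-box, which lies outside both intervals. Their log2 fold changes were 0.19 (SE 0.24) and -0.18 (SE 0.20).

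At the Nr1d2 promoter a single library lay far from the rest. Its promoter interval of 722 bp (chr14:19071345-19072067) held 1205, 904 and 712 counts in CTL and 1995, 930 and 1066 in H2A.Z dKO. In scaled counts these were 197.4, 195.6 and 201.6 CPM against 350.0, 201.3 and 209.0 CPM. Replicate 1 of H2A.Z dKO was far above the other 5 libraries, which lay between 195.6 and 209.0 CPM and overlapped between the groups. The log2 fold change of this interval was 0.36 (SE 0.17, unadjusted p = 0.059, edgeR adjusted p = 0.972), and without H2A.Z dKO replicate 1 it was 0.05 (SE 0.07). Without H2A.Z dKO replicate 2 it was 0.50 (unadjusted p = 0.0034, edgeR adjusted p = 0.894). Without H2A.Z dKO replicate 3 it was 0.47 (unadjusted p = 0.010, edgeR adjusted p = 0.874). The neighbouring promoter interval of 586 bp, centred 605 bp downstream of a TSS, held 125.8, 123.1 and 132.0 CPM in CTL and 138.1, 103.9 and 121.4 CPM in H2A.Z dKO. There the log2 fold change was -0.07 (SE 0.11), so the excess of replicate 1 lay mostly in the upstream interval. The largest positive fold change of the 62 was also at Nr1d2, in an intronic interval of 17 bp with the ROR element TAGGTCA in its window but outside the interval. It rested on 14, 6 and 4 counts in CTL and 10, 17 and 9 in H2A.Z dKO (log2 fold change 0.48, SE 0.39).

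Dbp, the output gene, had the promoter with the least spread among the H2A.Z dKO libraries. Its promoter sum held 107.3, 107.8 and 103.1 CPM in CTL and 104.7, 100.4 and 98.1 CPM in H2A.Z dKO. The coefficient of variation was 2.44% in CTL and 3.35% in H2A.Z dKO, against medians of 7.09 and 10.4% over 10365 genes with a mean of at least 100 counts. Between the groups its log2 fold change was -0.06 (SE 0.09). The upstream interval with both ROR element cores (chr7:52960117-52960471) had a log2 fold change of -0.02 (SE 0.11). The interval near an internal start, 2.78 kb into the gene (chr7:52963163-52963312), contains an E-box. It held 23.4, 22.7 and 27.2 CPM in CTL and 21.8, 18.4 and 21.0 CPM in H2A.Z dKO. The groups did not overlap there, and the log2 fold change was -0.25 (SE 0.17, unadjusted p = 0.16).

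Replicate 1 of H2A.Z dKO was the highest or lowest of the 6 libraries at 8 of the 9 clock gene promoters, highest at Arntl, Clock, Cry1 and Nr1d2 and lowest at Per1, Per2, Per3 and Cry2. This was common in the series, since this library was highest or lowest at 60.1% of the 10365 genes, against 21.7 to 32.9% for each other library. Its log2 deviation from the mean of the other 5 libraries was 0.60 at Nr1d2 (the 97.3rd percentile of those genes), 0.34 at Clock, 0.27 at Arntl, 0.20 at Cry1 and 0.02 at Dbp. It was -0.19 at Per1 and Per3, -0.34 at Cry2 (the 7.16th percentile) and -0.35 at Per2 (the 6.85th percentile). Without this library the log2 fold changes of the promoter sums lay between -0.06 (Per3 and Dbp) and 0.07 (Cry1), against -0.14 to 0.21 with it. The signs of Arntl, Clock and Per2 turned, to -0.05, -0.02 and 0.04.

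**Figure D4:**
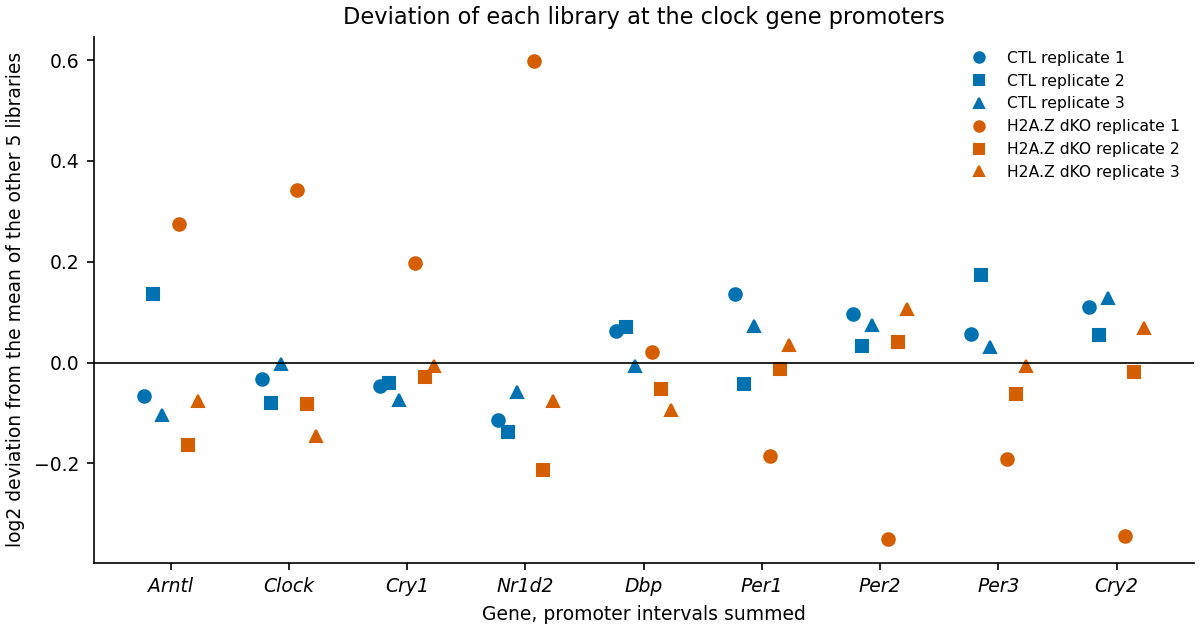
The log2 deviation of each library from the mean of the other 5 (y axis) is plotted for the summed promoter intervals of 9 clock genes (x axis), 1 point per library. H2A.Z dKO replicate 1 (orange circles) lies highest at 4 genes, up to 0.60 at Nr1d2, and lowest at 4 genes, down to -0.35 at Per2.

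The promoters of the clock genes differed in openness from one another. Per unit of width and depth (RPKM in the intervals, mean of CTL, n = 3), the order was Per1 (327.2 ± 17.2, SD), Nr1d2 (248.6 ± 6.5), Cry2 (240.1 ± 5.8), Arntl (239.5 ± 17.8), Dbp (188.0 ± 4.0), Cry1 (183.2 ± 1.4), Per3 (182.2 ± 7.8), Per2 (181.6 ± 3.5) and Clock (129.6 ± 3.2). Neighbours in this order had ranges over the CTL libraries that did not overlap only for Per1 over Nr1d2, Arntl over Dbp and Per2 over Clock. With 73 bp, the authors' extension of fragment ends in peak calling, added to each width, an adjustment chosen after the data were seen, Nr1d2 (223.6 RPKM) came before Per1 (211.4 RPKM), and Clock (103.7 RPKM) stayed lowest. Per2 (161.4 ± 3.1 RPKM) then came before Cry1 (143.8 RPKM), Per3 (142.9 RPKM) and Dbp (135.4 ± 2.9 RPKM), so the order of Dbp and Per2 also depended on the width used. Percentiles of summed CPM among all genes with a promoter interval were taken from the mean over the libraries of both groups. With each overlapping group counted once, Nr1d2 was at the 99.9th, Per1 at the 99.8th and Arntl at the 97.1st percentile. Cry1 was then at the 79.6th, Per3 at the 75.2nd and Clock, the lowest of the 9, at the 70.4th. In CTL alone, summed in the same way, Per1 (334.2 ± 17.5 CPM, SD) lay above Nr1d2 (325.2 ± 7.6 CPM). With every interval summed, Cry1 was at the 95.3rd, Clock at the 81.2nd and Per3, then the lowest, at the 71.4th percentile.

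Among other genes of the clock pathway no interval passed the threshold either. The 17 genes described (the paralogues Npas2 and Arntl2, the nuclear receptors Rora and Rorb, the repressors Bhlhe40, Bhlhe41, Gm129 and Timeless, the kinases and ubiquitin ligases that act on PER and CRY, and the output factors Tef, Hlf and Nfil3) had 85 intervals, of which 52 were higher and 33 lower in H2A.Z dKO. The median log2 fold change was 0.06, and its difference from that of the 62 clock gene intervals was not tested. None had an adjusted p under 0.05 in edgeR or DESeq2. At an unadjusted p under 0.05 there were 3 in edgeR (3.53%, against 4.95% of all intervals) and 2 in DESeq2 (2.35%, against 1.9%).

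The smallest p was at Bhlhe41, an E-box repressor, with 12.8, 16.7 and 14.2 CPM in CTL and 21.2, 19.1 and 21.0 CPM in H2A.Z dKO. The groups did not overlap there, and the log2 fold change was 0.50 (SE 0.19, unadjusted p = 0.015, edgeR adjusted p = 0.972). The other 2 were at Csnk1d (log2 fold change 0.50), a kinase of PER, and Fbxw11 (0.30), a ubiquitin ligase subunit, with unadjusted p of 0.034 and 0.037. At Csnk1d the groups overlapped, and H2A.Z dKO replicate 1 held 36.0 CPM against 16.1 to 21.0 CPM in the other libraries. The smallest p of the lower intervals was at Nfil3, a D-box repressor, with 18.4, 18.8 and 21.0 CPM in CTL and 16.7, 13.0 and 14.5 CPM in H2A.Z dKO (log2 fold change -0.38, SE 0.19, unadjusted p = 0.054).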

How the data were processed

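ATAC-seq was analysed in 3 CTL and 3 H2A.Z dKO libraries, made from 50000 nuclei each per the labels. The authors trimmed reads with Trimmomatic, aligned them to mm9 with Bowtie, removed duplicates with Picard, shifted fragment ends for Tn5, called peaks with MACS2 and merged them into union intervals. Counts of fragment ends in each interval were deposited for each library without normalization. The deposited table also holds the authors' DESeq2 comparison (fold change, error, statistic and p-values), which was not used. Columns were matched to samples by the header, with 0 left unused. Interval coordinates are given as deposited.

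Intervals were annotated with GENCODE vM1. No interval was filtered. Counts of all 39768 intervals were fitted with edgeR 4.0.16 in R 4.3.3 (TMM, robust quasi-likelihood, no block), as were sums over promoter intervals per gene, with Benjamini-Hochberg adjustment over all features and a threshold of 0.05. CPM are TMM-scaled. RPKM divide counts by interval width and by the library's total in intervals. Deviations used log2(CPM + 0.5). Exact permutation tests were two-sided. The biological coefficient of variation was 0.126. The test was tried on simulated counts first. Library totals of 3520008 to 6117245 counts limit the precision, and errors do not cover PCR copies that remained.

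Named intervals were, per gene, the promoter interval of highest RPKM, those at an unadjusted p under 0.05, those of extreme fold change, and those away from a TSS with a motif. Other intervals were named after their values were seen. Of the pathway list, 1 gene is not reported here. The members and lists were chosen with earlier results of these data known. Alternatives were DESeq2 1.42.0, other scalings, a filter of 10 counts in every library, a replicate block, leaving out each library, a 5 kb rule, a 500 bp promoter, and, added after seeing the data, 73 bp wider intervals, leaving out 4 intervals at other genes' promoters and 1 interval per overlapping group, also for the promoter sums.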

Additional observations from a re-analysis of the deposited data

How the results depend on the processing

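No alternative gave a clock gene interval, a promoter sum or an interval of the other pathway genes an adjusted p under 0.05. The count of clock gene intervals at an unadjusted p under 0.05 was 7 (11.3%, against 4.95% of all intervals), with DESeq2 5 (8.06% against 1.9%), with a filter of 10 counts 6 (10.0% against 4.22%) and with total counts 8 (12.9% against 4.8%). In the same fit it was 5 within 5 kb (8.93%), 6 without intervals at other genes' promoters (10.3%) and 5 with 1 interval per overlapping group (9.8%), against the same 4.95%. It ran from 3 to 10 when 1 library was left out, with 4 (6.45%, against 4.92% of all intervals in that fit) without CTL replicate 1, 3 (4.84% against 3.18%) without CTL replicate 3, 4 (6.45% against 7.95%) without the first and 10 (16.1% against 5.6%) without the third H2A.Z dKO library. The share thus lay below that of all intervals without H2A.Z dKO replicate 1. Of the 8 with total counts and of the 10 without the third H2A.Z dKO library, 1 each was higher in H2A.Z dKO. Over the 62 intervals the median log2 fold change ran from -0.089 to -0.033 when 1 library was left out. For the other pathway genes the unadjusted count was 3, with DESeq2 2, and from 0 (without CTL replicate 1) to 7 (8.24%, against 7.95% of all intervals, without H2A.Z dKO replicate 1). The cause of these shifts was not tested.

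Directions turned in named results only when 1 library was left out. Of the 29 named intervals 18 kept their direction under the alternatives run for them, as did 6 of 9 promoter sums. The filter of 10 counts left 2 of the 29 (1 at Arntl and 1 at Nr1d2) untested. Of the promoter sums, the log2 fold change ran over -0.054 to 0.092 at Arntl, -0.024 to 0.15 at Clock and -0.17 to 0.043 at Per2. Of single intervals, it ran over -0.096 to 0.10 and -0.20 to 0.29 at Arntl, -0.62 to 0.022 at Cry1, -0.12 to 0.094 at Cry2, -0.053 to 0.010 at Dbp, -0.015 to 0.11 and -0.12 to 0.081 at Nr1d1, -0.034 to 0.027 and -0.093 to 0.28 at Per1, -0.19 to 0.0042 at Per2 and -0.33 to 0.085 at Per3. The Nr1d2 promoter sum had an unadjusted p under 0.05 only without H2A.Z dKO replicate 2 (log2 fold change 0.32) or with promoters of 500 bp (0.36).

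Replicate numbers did not pair the libraries (same-number correlations of -0.12, -0.06 and -0.05, and no library correlated best with its own number), and with the replicate block 7 clock gene intervals (11.3%, against 4.42% of all intervals) had an unadjusted p under 0.05, 0 an adjusted p under 0.05, and the median log2 fold change was -0.04. Of the 7 under the block, 6 were among the 7 without it. The Cry2 interval was lost, and the Nr1d2 promoter interval, higher in H2A.Z dKO, joined. It also joined with total counts, without H2A.Z dKO replicate 2 and without H2A.Z dKO replicate 3.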
